A study of Homo sapiens with 18 samples.

Results

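The PIM kinases are 3 related serine/threonine kinases, encoded by PIM1 (ENSG00000137193), PIM2 (ENSG00000102096) and PIM3 (ENSG00000198355). Their rows were taken from a table of raw counts for 57820 human genes, of which 15307 had enough counts to be tested, all 3 PIM genes among them. RNA came from MDA-MB-231, a human triple-negative breast cancer line, 72 hours after lipofection of siRNA. Cells received siRagC1 or siRagC2, a pair of siRNAs against RagC (both labelled RagC knock-down), which were each compared with a control siRNA, siCtrl (labelled WT), with 6 libraries per group and 18 in all. The RRAGC gene encodes RagC, a GTPase that helps bring the growth-controlling kinase complex mTORC1 to the lysosome, and the study silenced it to find genes that change when mTORC1 is repressed. All groups share the cell line and the transfection method. The labels call the libraries biological replicates, and whether each was a culture of its own is not stated. The p-values therefore measure the spread between these libraries, which may be technical. By their codes the libraries form 2 series. Replicates 1 and 2 of every group carry D1103 and replicates 3 to 6 carry D1221, and the sources used here do not say what these codes stand for.

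PIM kinases carry no regulatory domain that switches them off, so their activity is set mainly by how much protein a cell makes and keeps. PIM1 was found as an integration site of a leukaemia virus in mouse lymphomas, and transcription of the family is induced by cytokines through JAK kinases and STAT factors and by NF-kB. Their substrates include the cell death protein BAD, the cell cycle inhibitors p21 and p27, and 2 proteins of the mTORC1 pathway, the translation repressor 4E-BP1 and the mTORC1 inhibitor PRAS40. PIM1 has been studied as a dependency of triple-negative breast cancer.

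PIM1 was chosen by its measured values, after it was seen to rise with siRagC2 in the D1221 libraries, and PIM2 and PIM3 joined it as its relatives, without regard to their own values. For PIM1, values from D1221, and from any fit that holds these libraries, are therefore given as a description with no test, and PIM1 was tested on the D1103 libraries alone. PIM2 and PIM3 were tested over all 18 libraries.

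The stretches before the starts of the 3 genes are shown for their base composition. The responses of the 3 genes were not tested against each other. Each run below is the 250 bases upstream of the RefSeq start on the gene's own strand, on build GRCh38.p14 and not on the GRCh37/hg19 build named in the submitters' processing notes. The PIM1 stretch lies at chr6:37169902-37170151 (plus strand), that of PIM2 at chrX:48919025-48919274 (minus strand) and that of PIM3 at chr22:49960522-49960771 (plus strand). Capitals mark matches to the octamer ATGCAAAT, which OCT factors read, and to the CCAAT box, on either strand.
PIM1: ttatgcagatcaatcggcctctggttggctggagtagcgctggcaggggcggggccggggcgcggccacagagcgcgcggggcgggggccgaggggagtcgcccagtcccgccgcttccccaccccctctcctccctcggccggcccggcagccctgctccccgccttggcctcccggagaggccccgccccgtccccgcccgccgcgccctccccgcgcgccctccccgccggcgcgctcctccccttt
PIM2: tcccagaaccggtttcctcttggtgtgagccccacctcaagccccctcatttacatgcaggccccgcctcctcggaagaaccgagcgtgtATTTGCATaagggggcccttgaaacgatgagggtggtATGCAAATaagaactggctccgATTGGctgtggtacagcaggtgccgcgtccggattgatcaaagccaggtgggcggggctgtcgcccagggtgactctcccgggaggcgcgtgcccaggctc
PIM3: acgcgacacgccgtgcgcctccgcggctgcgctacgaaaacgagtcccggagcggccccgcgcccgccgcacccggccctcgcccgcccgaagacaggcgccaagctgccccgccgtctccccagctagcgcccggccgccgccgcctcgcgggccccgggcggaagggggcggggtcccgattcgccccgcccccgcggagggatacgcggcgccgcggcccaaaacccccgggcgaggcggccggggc

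The PIM1 and PIM3 stretches were made of 79.6% and 82.0% G and C, more than 96.3% and 98.3% of all 35116 RefSeq stretches of this length, while PIM2 had 61.2%, more than 57.0% of them. The GC box GGGCGG matched 4 times in PIM1, 1 time in PIM2 and 4 times in PIM3, counting both strands and any overlaps, and 42.6% of all stretches held it. PIM2 held the octamer 2 times and CCAAT 1 time, and PIM1 and PIM3 held neither. The octamer was added to the search after the PIM2 sequence had been seen, and 1.63% of all stretches held it, against 32.0% for CCAAT. The E-box core CACGTG, part of the site that TFEB reads, and the STAT site TTCNNNGAA matched in none of the 3 stretches, and 6.34% and 6.57% of all stretches held them. The counts below do not show which of these letters, if any, bear on the level of the genes.

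The libraries held 22940834 to 55409996 counts with siRagC1, 14829597 to 71622456 with siRagC2 and 18953348 to 44261701 with siCtrl. PIM1 was counted between 557 and 2930 times per library, PIM2 between 423 and 2038 times and PIM3 between 694 and 4343 times, so that counting error alone was at most 4.86% of a value. RRAGC stood at 38.3% of the siCtrl mean with siRagC1 and at 44.4% with siRagC2, and no library of either siRNA overlapped the controls. In D1103 it stood at 24.2% and 31.8% of the controls, and in D1221 at 45.7% and 51.1%. All 6 genes fixed as expressed in MDA-MB-231 were tested (VIM, CD44, AXL, MSN, CAV1 and EGFR), and 1 of them, CAV1, fell by 0.17 ± 0.04 with siRagC1 and 0.19 ± 0.04 with siRagC2 on the log2 scale (SE; edgeR over 18 libraries, adjusted p = 0.0312 and 0.0131). Of 6 luminal or epithelial genes, the hormone receptors ESR1 and PGR had too few counts to be tested, and EPCAM averaged 16.4 CPM (counts scaled to TMM library sizes) over the 18 libraries. KRT8, a keratin of luminal cells that went against the low level of the other genes of its list, averaged 552 CPM. Of 4 leukocyte and 2 matched endothelial markers, 2 and 0 had enough counts to be tested, PTPRC at 0.398 and CD14 at 0.579 CPM. A single library stood apart in base composition. In siCtrl replicate 6, the 1491 genes with the most GC-rich transcripts lay at a median of -0.51 on the log2 scale relative to the other libraries of its series, while the other 17 libraries lay between -0.08 and 0.16.

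PIM1 rose with each siRNA in the D1103 libraries, 1.25-fold with siRagC1 and 1.39-fold with siRagC2. PIM1 stood at 36.2 and 32.9 CPM in siRagC1 replicates 1 and 2. In siRagC2 it stood at 39.1 and 37.7 CPM, and in siCtrl at 26.7 and 28.3 CPM. Both libraries of each siRNA lay above both controls. In bulk RNA, more transcript per cell and more cells that express the gene cannot be told apart.

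The log2 fold change of PIM1 in D1103 was 0.33 ± 0.08 (SE, 95% interval 0.16 to 0.49) with siRagC1 against siCtrl, a 1.25-fold difference (edgeR quasi-likelihood test, Benjamini-Hochberg adjusted p = 0.0279 over 16175 genes). With siRagC2 against siCtrl it was 0.48 ± 0.08 (0.31 to 0.64), a 1.39-fold difference (edgeR, adjusted p = 0.00126). In these libraries 3.43% of all tested genes passed with siRagC1 and 7.10% with siRagC2, of which 2.12% and 3.82% were higher and 1.30% and 3.28% lower. PIM1 was thus 1 of 343 higher genes with siRagC1 and 1 of 618 with siRagC2, and the 2 comparisons share their control libraries. The siRagC2 result held in edgeR with each of the 6 libraries left out (adjusted p = 0.000892 to 0.0155). The siRagC1 result did not: its adjusted p was 0.141 without siCtrl replicate 1, 0.0563 without siCtrl replicate 2, 0.250 without siRagC1 replicate 1 and 0.0854 without siRagC1 replicate 2, with log2 fold changes of 0.28, 0.37, 0.25 and 0.39.

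The D1221 libraries, on which PIM1 was chosen, are described without a test. PIM1 stood at 38.9, 37.6, 42.7 and 42.3 CPM in siRagC1 replicates 3 to 6 and at 40.5, 45.3, 46.2 and 47.5 CPM in siRagC2 replicates 3 to 6. The controls of this series stood at 31.2, 31.9, 31.3 and 28.9 CPM. No siRNA library overlapped the controls. Log2 fold changes were 0.39 ± 0.07 for siRagC1 and 0.54 ± 0.07 for siRagC2 (SE), against 0.33 and 0.48 in D1103. In D1221, edgeR called 0.00666% of the 15016 tested genes with siRagC1 and 0.00666% with siRagC2. PIM1 was chosen on these libraries, so no call is given for it here and nothing is read from these shares for PIM1.

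Over both series PIM1 averaged 38.4 ± 3.76 CPM with siRagC1, 42.7 ± 4.13 with siRagC2 and 29.7 ± 2.03 with siCtrl (SD, n = 6 each). The order of levels was siRagC2, then siRagC1, then siCtrl. Against the control of the same number PIM1 was higher in 6 of 6 siRagC1 libraries, at 1.16 to 1.47 times. It was also higher in 6 of 6 siRagC2 libraries, at 1.30 to 1.65 times. These counts include the D1221 libraries on which PIM1 was chosen, so they are a description and no test. The ranges of the 2 siRNAs, 32.9 to 42.7 and 37.7 to 47.5 CPM, overlapped. In D1103, siRagC1 minus siRagC2 gave a log2 difference of -0.15 ± 0.08 (SE, 95% interval -0.32 to 0.01, edgeR adjusted p = 0.454), and 1.43% of tested genes passed in this comparison, 0.600% as lower genes. A difference between the siRNAs was thus not called, and the interval reaches from slightly above 0 to a lower level with siRagC1. PIM1 was higher in D1221 than in D1103 in every group, at 40.4 and 34.5 CPM with siRagC1, 44.9 and 38.4 with siRagC2, and 30.8 and 27.5 with siCtrl.

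**Figure D1:**
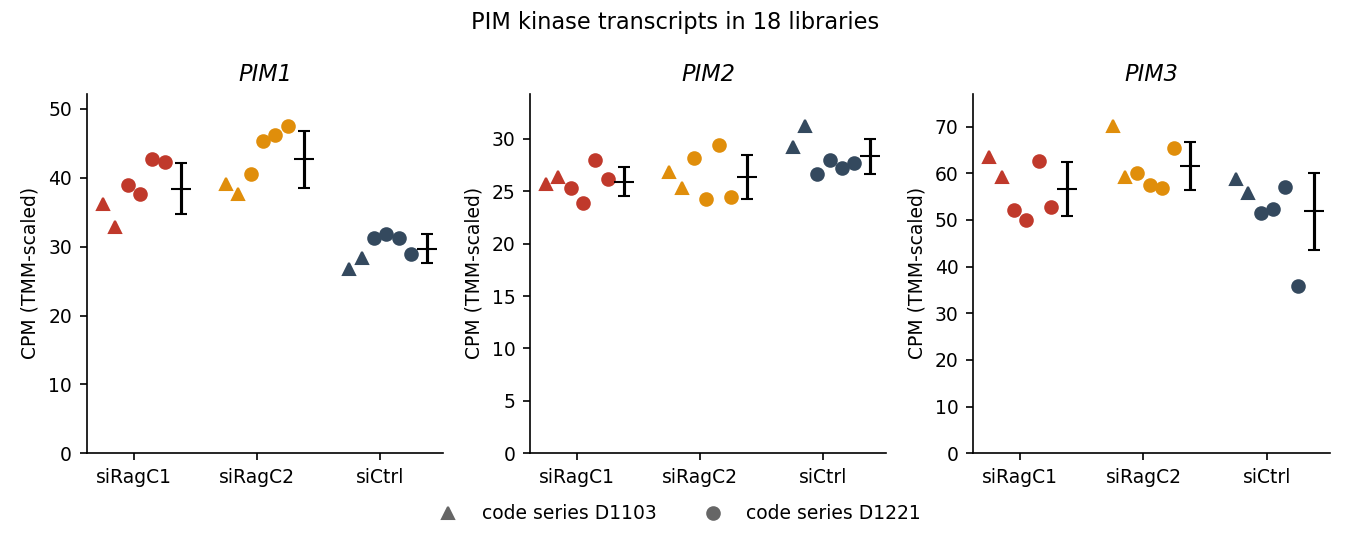
Level of PIM1, PIM2 and PIM3 in CPM (vertical axis) in each of the 18 libraries, by group, with triangles for code series D1103, circles for D1221 and bars for the mean ± SD of 6 libraries. All PIM1 points of siRagC1 and siRagC2 lie above the highest siCtrl point of 31.9 CPM, the PIM2 groups overlap, and 1 siCtrl library lies low for PIM3 at 35.9 CPM.

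Within a group and series, the library with the least RRAGC was the one with the most PIM1 in 3 of 4 sets of siRNA libraries. These were siRagC1 replicate 5 in D1221, with RRAGC at 23.3 and PIM1 at 42.7 CPM, siRagC2 replicate 6 in D1221, at 21.8 and 47.5 CPM, and siRagC2 replicate 1 in D1103, at 19.3 and 39.1 CPM. In the fourth set, siRagC1 in D1103, replicate 2 had the least RRAGC, at 12.3 CPM, and the lower PIM1, at 32.9 CPM. The other libraries of siRagC1 in D1221 did not keep this order. Replicate 6 had the most RRAGC, at 31.9 CPM, with PIM1 at 42.3 CPM. Replicate 4 had RRAGC at 25.4 CPM and the least PIM1, at 37.6 CPM. For siRagC2 in D1221, replicate 3 had the most RRAGC, at 40.8 CPM, and the least PIM1, at 40.5 CPM. Each set holds 2 or 4 libraries, so a match can readily arise by chance, and these are values with no test. Across the series, RRAGC was lower in D1103 with either siRNA and PIM1 was lower there in every group, siCtrl included, while the log2 fold changes of PIM1 differed between the series by 0.06 ± 0.11 (SE, D1221 minus D1103) with each siRNA.

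**Figure D2:**
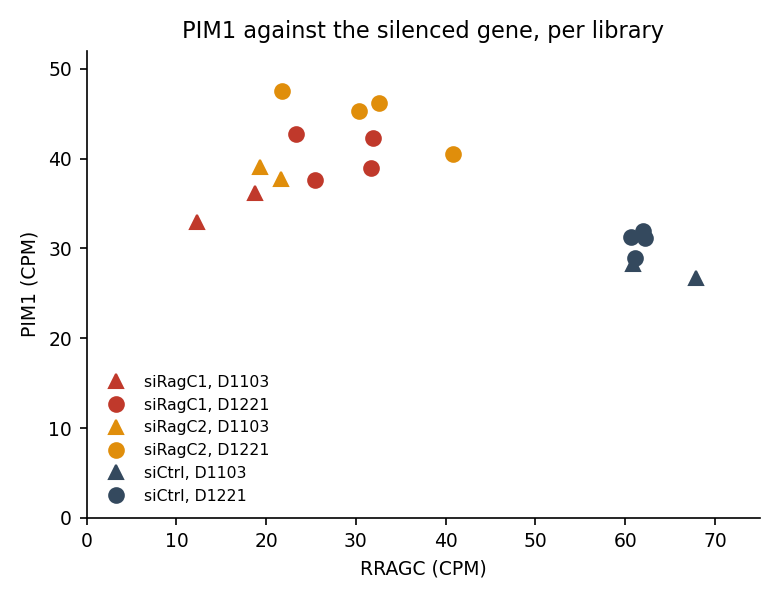
PIM1 against RRAGC, both in CPM, with 1 point per library, coloured by group and shaped by code series. The 6 siCtrl libraries sit at 60.6 to 67.9 CPM of RRAGC and at 26.7 to 31.9 CPM of PIM1. The 12 siRNA libraries lie at lower RRAGC and higher PIM1, and the D1103 triangles lie low on the PIM1 axis in each group.

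PIM2, the family member best known from lymphoid cells and as a kinase of TSC2, was not called in any comparison, and its values pointed down. It stood at 25.7 and 26.4 CPM in the D1103 libraries of siRagC1, at 26.8 and 25.3 CPM in those of siRagC2, and at 29.2 and 31.2 CPM in those of siCtrl. In D1221 it stood at 23.9 to 28.0 CPM with siRagC1, 24.3 to 29.4 with siRagC2 and 26.6 to 28.0 with siCtrl. The groups were thus apart in D1103 and overlapped in D1221. Over both series PIM2 averaged 25.9 ± 1.37 CPM with siRagC1, 26.4 ± 2.09 with siRagC2 and 28.3 ± 1.68 with siCtrl (SD, n = 6 each). The log2 fold change was -0.13 ± 0.06 with siRagC1 (SE, 95% interval -0.25 to -0.02, edgeR adjusted p = 0.226, unadjusted 0.0279) and -0.10 ± 0.06 with siRagC2 (-0.22 to 0.01, adjusted p = 0.346). PIM2 lay below the same-numbered control in 5 of 6 siRagC1 libraries and 4 of 6 siRagC2 libraries. In D1103 alone the log2 fold change was -0.22 ± 0.08 with each siRNA (edgeR adjusted p = 0.157 and 0.120), and in D1221 alone it was -0.08 ± 0.07 and -0.04 ± 0.07 (adjusted p = 0.844 and 0.888). The difference between the series, D1221 minus D1103, was 0.13 ± 0.12 with siRagC1 and 0.18 ± 0.12 with siRagC2 (edgeR, adjusted p = 1.00 and 0.743).

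PIM3, which acts on many of the same substrates, was also not called in the fit of 18 libraries, and its values pointed up. In siRagC1 it stood at 63.4 and 59.2 CPM in D1103 and at 52.2, 49.9, 62.6 and 52.8 CPM in D1221. In siRagC2 it stood at 70.1 and 59.2 CPM in D1103 and at 60.0, 57.6, 56.8 and 65.4 CPM in D1221. The controls stood at 58.8 and 55.8 CPM in D1103 and at 51.4, 52.3, 57.0 and 35.9 CPM in D1221. A single control library, siCtrl replicate 6, lay far under the other 17. In D1103 both libraries of each siRNA lay above both controls, and in D1221 both siRNAs overlapped the controls. PIM3 averaged 56.7 ± 5.79 CPM with siRagC1, 61.5 ± 5.17 with siRagC2 and 51.9 ± 8.29 with siCtrl (SD, n = 6 each).

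The log2 fold change of PIM3 was 0.13 ± 0.08 with siRagC1 (SE, 95% interval -0.04 to 0.30, edgeR adjusted p = 0.455) and 0.25 ± 0.08 with siRagC2 (0.07 to 0.42, adjusted p = 0.102, unadjusted 0.00722). With no filter on low counts the siRagC2 value of 0.24 ± 0.06 passed (edgeR, adjusted p = 0.00271). Without siCtrl replicate 6 the values were 0.05 ± 0.06 and 0.17 ± 0.06 (edgeR, adjusted p = 0.694 and 0.111), and without siRagC1 replicate 5 the siRagC1 value was 0.08 ± 0.08 (adjusted p = 0.671), so each of these libraries moved the siRagC1 value by more than 1.5 times. The PIM3 transcript was 67.1% G and C, above 98.6% of the 14910 tested genes with a transcript to measure, and thus among the GC-rich genes that lay low in that library. PIM1 and PIM2 transcripts had 56.1% and 55.1%, above 74.6% and 71.7% of them. The part of base composition in the PIM3 values was not tested.

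**Figure D3:**
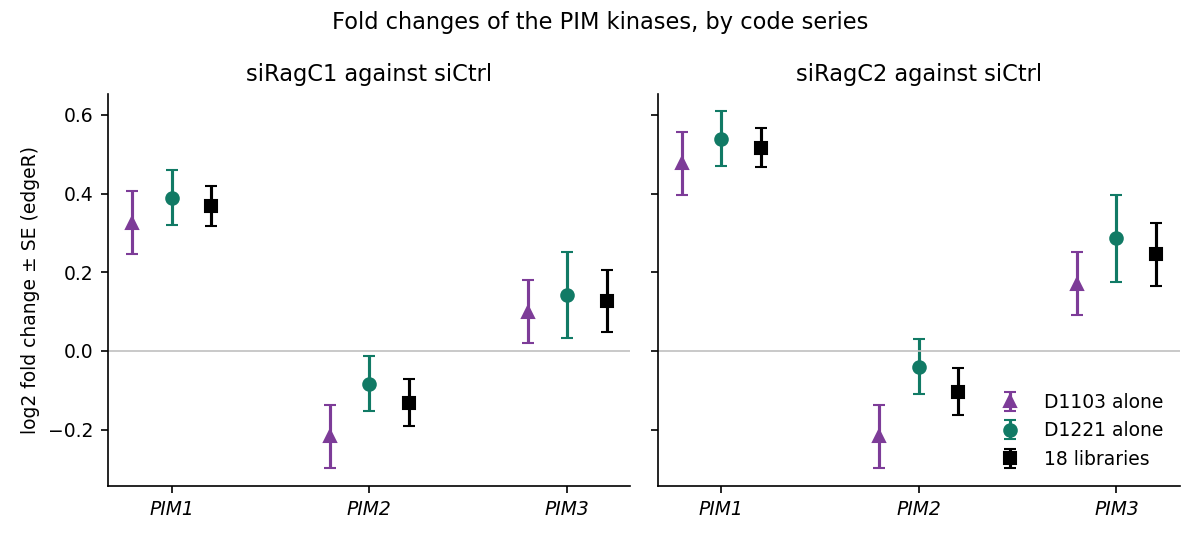
Log2 fold change ± SE (vertical axis, edgeR) of PIM1, PIM2 and PIM3 with siRagC1 and with siRagC2 against siCtrl, fitted on the D1103 libraries (triangles), the D1221 libraries (circles) and all 18 (squares). PIM1 lies between 0.33 and 0.54 in all 6 fits, PIM2 between -0.22 and -0.04 and PIM3 between 0.10 and 0.29.

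Between the siRNAs, PIM2 had a log2 difference, siRagC1 minus siRagC2, of -0.03 ± 0.06 (SE, 95% interval -0.14 to 0.09, edgeR adjusted p = 0.950), and PIM3 of -0.12 ± 0.08 (-0.29 to 0.05, adjusted p = 0.773). The intervals leave room for differences of up to 0.14 and 0.29 in absolute log2 value. Per kilobase of exon in the GENCODE 29 annotation, which may not be the annotation counted, PIM3 was the most abundant of the family. It had 23 ± 2.35 CPM per kilobase with siRagC1, 25 ± 2.10 with siRagC2 and 21.1 ± 3.38 with siCtrl (SD, n = 6 each). PIM1 had 12.9 ± 1.25, 14.3 ± 1.38 and 9.98 ± 0.692 CPM per kilobase in the same groups, and PIM2 had 9.39 ± 0.490, 9.56 ± 0.760 and 10.3 ± 0.601. In siCtrl the levels of PIM2 and PIM1 per kilobase thus lay within their spread of each other, whereas with either siRNA the ranges of PIM1 lay above those of PIM2. MIR6821 lies within PIM3 on the same strand, and no annotated gene overlaps PIM1 or PIM2.

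Genes around the PIM kinases were read from 10 lists that held 185 genes, of which 183 matched a row and 171 were tested over the 18 libraries. With siRagC1, 1 was higher and 3 were lower, which is 2.34% of them, against 2.04% of all tested genes (1.41% higher and 0.627% lower). With siRagC2, 6 were higher and 1 was lower, which is 4.09% against 3.23% of all tested genes (1.87% higher and 1.36% lower), or 986 genes in place of 495 with the replicate number as a block. Both shares lie near the background, and the median log2 fold change of all tested genes was 0.0051 and 0.00465. The 2 comparisons use the same controls. For the counts below, 2613 of all 15307 tested genes had an unadjusted edgeR p under 0.05 with siRagC1, and 2833 with siRagC2. DESeq2 called 778 and 1005 of all genes, more than edgeR did.

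The first list held signals that induce PIM genes. Of 22 tested cytokines, receptors and JAK kinases, 0 were higher and 1 lower with siRagC1 (median log2 fold change 0.053). With siRagC2, 1 was higher and 1 lower (median 0.045). Of the 22, 7 and 9 had an unadjusted edgeR p under 0.05, a larger share than among all tested genes. DESeq2 called EPOR and IFNGR2 as higher and IL11 as lower with each siRNA. IL11, a cytokine that signals through the gp130 receptor, averaged 119 ± 64.9 CPM with siRagC1, 135 ± 72.9 with siRagC2 and 173 ± 66.1 with siCtrl (SD, n = 6 each), and fell by 0.69 ± 0.13 and 0.52 ± 0.13 on the log2 scale (SE; edgeR, adjusted p = 0.0155 and 0.0429). JAK3, a kinase of cytokine receptors in lymphoid cells, was scarce. It averaged 0.873 ± 0.201 CPM with siRagC1, 0.950 ± 0.233 with siRagC2 and 0.545 ± 0.0645 with siCtrl, and no library of either siRNA overlapped the controls. Its log2 fold change was 0.67 ± 0.20 with siRagC1 (edgeR, adjusted p = 0.0885), and it rose by 0.83 ± 0.21 with siRagC2 (adjusted p = 0.0282), a call that DESeq2 did not make. JAK1, the most abundant of these kinases by counts, averaged 153 CPM over the 18 libraries.

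The 7 STAT factors had 0 calls with either siRNA in edgeR, limma-voom and DESeq2, with 2 and 1 at an unadjusted edgeR p under 0.05 and medians of -0.005 and 0.075. STAT3, the main factor downstream of gp130, averaged 190 ± 12.3 CPM with siRagC1, 210 ± 13.2 with siRagC2 and 200 ± 6.53 with siCtrl (SD, n = 6 each; edgeR, adjusted p = 0.488 and 0.430). STAT6, which serves interleukin-4, averaged 238 ± 26.2, 234 ± 31.5 and 219 ± 23.7 CPM in the same groups (edgeR, adjusted p = 0.144 and 0.260). Of 15 tested inhibitors of this pathway, 0 were called by any of the 3 tools, with 3 and 2 at an unadjusted edgeR p under 0.05 and medians of -0.045 and 0.010. PTPN11 and PTPN1, phosphatases of receptor signalling, were the most abundant of these by counts, at 477 and 178 CPM over the 18 libraries. SOCS3, a STAT3 target and inhibitor of JAK kinases that was picked after its values were seen, averaged 57.5 ± 8.60 CPM with siRagC1, 60.7 ± 12 with siRagC2 and 60.0 ± 13.5 with siCtrl, with log2 fold changes of -0.05 ± 0.05 and 0.02 ± 0.05 (edgeR, adjusted p = 0.690 and 0.879).

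Of 18 STAT3 and STAT5 response genes, 0 were called with siRagC1 in edgeR (3 at an unadjusted p under 0.05; DESeq2 called ICAM1), and ICAM1, an adhesion receptor, was the 1 higher gene with siRagC2. Medians were 0.009 and 0.037. ICAM1 averaged 162 ± 19.1 CPM with siRagC1, 176 ± 39.1 with siRagC2 and 130 ± 16.9 with siCtrl, and rose by 0.43 ± 0.09 with siRagC2 (edgeR, adjusted p = 0.0110). Among 26 tested NF-kB factors and targets, which include ICAM1 again, siRagC1 gave 0 higher and 1 lower gene and siRagC2 gave 2 higher and 0 lower genes, with medians of -0.035 and -0.024. NFKB1, a subunit of NF-kB, averaged 82.3 ± 4.82 CPM with siRagC1, 85.5 ± 2.37 with siRagC2 and 90.8 ± 3.85 with siCtrl, and fell by 0.14 ± 0.04 with siRagC1 (edgeR, adjusted p = 0.0408). CSF1, a growth factor for macrophages, averaged 464 ± 80.6, 531 ± 144 and 389 ± 97.0 CPM in the same groups and rose by 0.44 ± 0.09 with siRagC2 (adjusted p = 0.0104).

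Of 27 tested substrates of PIM kinases, 0 were called by edgeR with siRagC1 (8 had an unadjusted p under 0.05), while DESeq2 called 2 higher and 2 lower. With siRagC2, 2 were higher and 0 lower, and the medians were 0.032 and -0.003. CDKN1B, which encodes the cell cycle inhibitor p27, averaged 62.3 ± 3.61 CPM with siRagC1, 71.8 ± 8.72 with siRagC2 and 58.0 ± 2.82 with siCtrl. It rose by 0.30 ± 0.05 with siRagC2 (edgeR, adjusted p = 0.00185), and its log2 fold change with siRagC1 was 0.10 ± 0.05 (adjusted p = 0.271). NOTCH3, a receptor of cell-to-cell signalling, averaged 3.92 ± 0.540, 4.30 ± 0.709 and 2.98 ± 0.563 CPM in these groups and rose by 0.54 ± 0.12 with siRagC2 (adjusted p = 0.0199).

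The remaining lists follow in turn. Of 13 tested AKT, SGK and S6 kinases, which share substrates with PIM, 0 were called by edgeR, limma-voom or DESeq2, with 3 and 0 at an unadjusted edgeR p under 0.05. AKT1 and AKT2 averaged 213 and 160 CPM over the 18 libraries. Of 12 genes that act on PIM transcripts or proteins, edgeR called 0, with 3 and 4 at an unadjusted p under 0.05, and DESeq2 called HSP90AA1 as lower with each siRNA. HSP90AA1 and HSP90AB1, chaperones of PIM1 protein, averaged 2880 and 1890 CPM. Of 32 tested immediate early and short-lived transcripts, 1 was higher with each siRNA and 1 lower with siRagC1. At an unadjusted edgeR p under 0.05 there were 6 with siRagC1 and 10 with siRagC2. DESeq2 also called CCN2 as lower with each siRNA and KLF2 as higher with siRagC2. KLF6, a zinc finger factor, averaged 243 ± 12.4 CPM with siRagC1, 242 ± 9.90 with siRagC2 and 216 ± 7.06 with siCtrl, and rose by 0.17 ± 0.04 with each (edgeR, adjusted p = 0.0257 and 0.0218). CCN1, a matrix protein, averaged 673 ± 146, 765 ± 102 and 867 ± 48.0 CPM in the same groups and fell by 0.38 ± 0.09 with siRagC1 (adjusted p = 0.0316). Of 12 interferon-stimulated genes, which can respond to transfected RNA, edgeR called 0, with 4 and 2 at an unadjusted p under 0.05. Their median log2 fold changes were 0.117 with siRagC1, where 11 of 12 were positive, and 0.004 with siRagC2, where 6 were. DESeq2 called IFI27 as higher with each siRNA. IFIT3 and ISG15 were the most abundant of these by counts, at 77.6 and 60.2 CPM.

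Without siCtrl replicate 6, an alternative chosen after seeing the data, edgeR called the same genes of these lists with siRagC2. With siRagC1 it then also called HIF1A as higher and NFKBIB and GADD45B as lower, and no longer called CCN1.

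**Figure D4:**
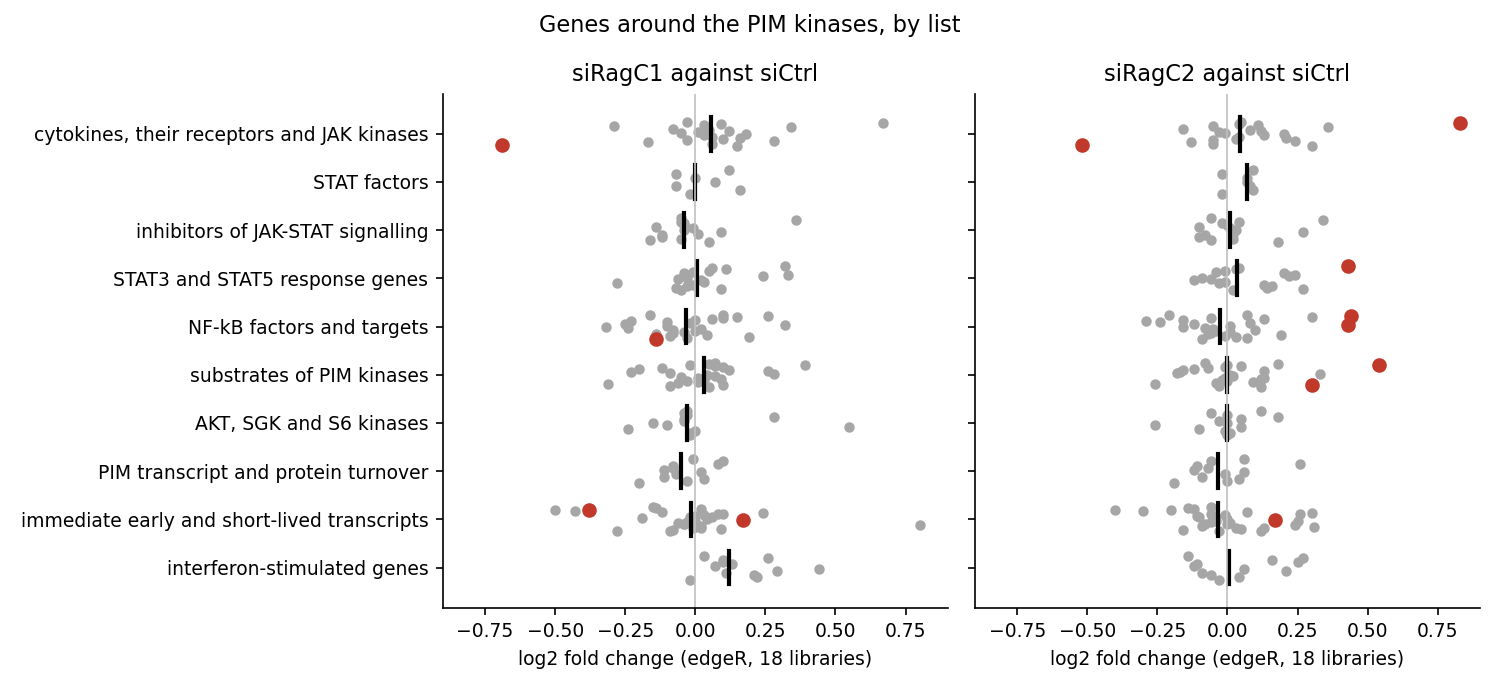
Log2 fold change (horizontal axis, edgeR over 18 libraries) of the tested genes of each list with siRagC1 and with siRagC2 against siCtrl. Red points passed an adjusted p under 0.05, grey points did not, and black bars mark list medians, which lie between -0.05 and 0.117.

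Over the 18 libraries, the genes most like PIM1 were sought among 10872 other named genes with a mean of at least 5 CPM, by Pearson's r of log2 CPM with the mean of the code series taken off. These are descriptions over libraries that share groups, series and scaling, and PIM1 itself was chosen for a group difference. TIMP2, an inhibitor of matrix metalloproteases, was the most like PIM1 (r = 0.912, Spearman's rho = 0.814), followed by DUSP10, a phosphatase of stress kinases (0.883), GARRE1 (0.876), PDK2, a kinase of pyruvate dehydrogenase (0.870), EPDR1 (0.860) and CSPG4, a proteoglycan of the cell surface (0.858). Their log2 fold changes were all positive, from 0.14 to 0.41 with siRagC1 and from 0.19 to 0.42 with siRagC2. This sign follows largely from the choice, as PIM1 was higher with both siRNAs and r kept the group differences. MIR100HG, a noncoding RNA that hosts microRNAs, and MOCOS, an enzyme of the molybdenum cofactor, ran most opposite to PIM1 (r = -0.942 and -0.920).

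The r values were smaller within groups. With the mean of each group in each series taken off, r with PIM1 was 0.235 for TIMP2, 0.592 for DUSP10, 0.483 for GARRE1, 0.363 for PDK2, 0.318 for EPDR1 and 0.534 for CSPG4, and it was -0.759 for MIR100HG and -0.682 for MOCOS. TIMP2, PDK2, EPDR1, CSPG4 and MIR100HG overlap annotated genes on the opposite strand, as do ICAM1, STAT6, PTPN11, HSP90AA1 and IFIT3 of the lists, and the sources used here do not give the strand setting of the counts.

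PIM2 and PIM3 had other nearest genes. WRAP53 and APEX2, a DNA repair nuclease, each had r = 0.870 with PIM2, and SLC35A4 had 0.849. HES4, FGFRL1 and GOLGA2 had r = 0.930, 0.921 and 0.912 with PIM3 (Spearman's rho = 0.812, 0.789 and 0.820). Their r within groups and series was 0.893, 0.924 and 0.882. Among the members, r with the series mean taken off was 0.68 between PIM1 and PIM3, -0.43 between PIM1 and PIM2 and -0.17 between PIM2 and PIM3. Within groups and series it was 0.55, 0.10 and 0.07. The low PIM3 value of siCtrl replicate 6 enters every r with PIM3, also within groups. GC-rich genes as a set lay low in that library, and the part of this in the r values was not tested.

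**Figure D5:**
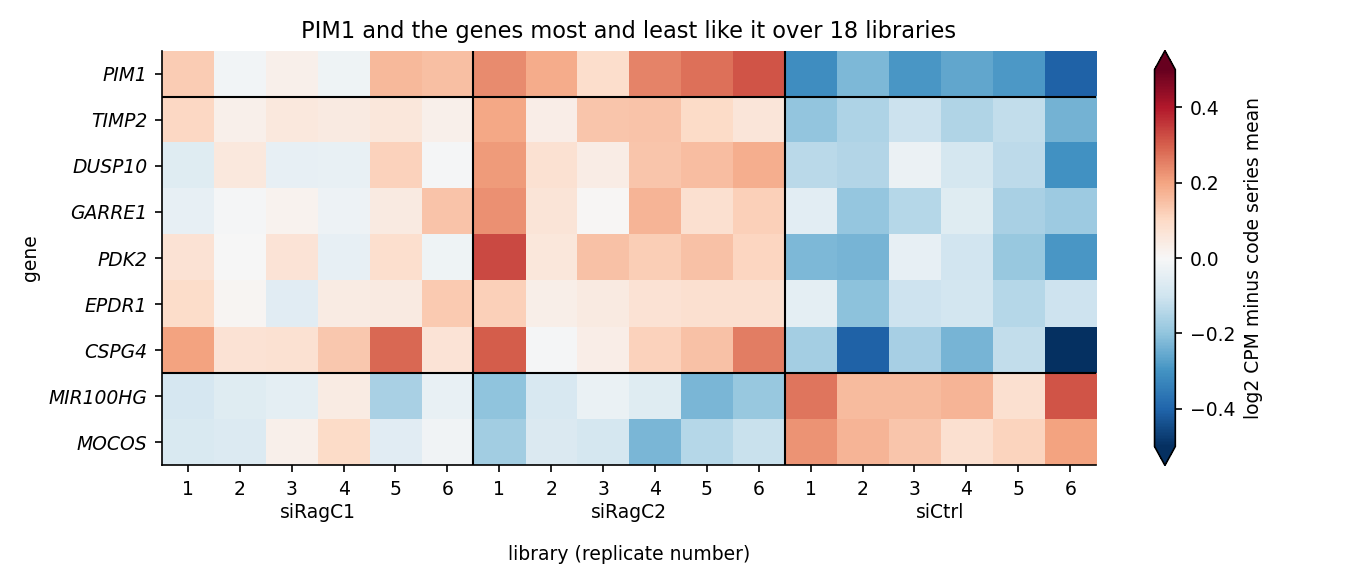
Log2 CPM minus the mean of the code series (colour, red above and blue below) for PIM1, the 6 genes most like it and the 2 least like it, in each library (columns, by group and replicate number). PIM1 is blue in all 6 siCtrl libraries and red in all 6 siRagC2 libraries, and MIR100HG and MOCOS run the other way.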

How the data were processed

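The authors deposited raw counts per Ensembl gene for 18 libraries, each made from 500 ng of RNA (per the labels). Per the submitters' processing notes, cutadapt 0.6.2, STAR 2.7.6a and GRCh37/hg19 were used. The sources used here do not give the counting tool, strand setting or annotation. Symbols came from a table of Ensembl IDs (51996 of 57820 matched), and promoter sequences from RefSeq. All 3 members matched.

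edgeR 4.0.16 in R 4.3.3 fitted the counts (TMM scaling, genes kept by filterByExpr per group, and its robust quasi-likelihood test), with terms for code series and group over 18 libraries, or for group alone in D1103, and SE taken as the fold change over the root of F. The threshold was an adjusted p (Benjamini-Hochberg, across every gene tested) below 0.05. The procedure was also run on simulated counts, drawn independently for each library with no difference between series. Nothing is concluded from that run here. The members and lists were chosen with earlier results of these data known. The text names the members, RRAGC, up to 4 called genes per list, direction and comparison (or the 2 with most counts where none was called), and the genes most like a member. Others are marked.

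Alternatives were RLE factors, no filter, DESeq2 1.42.0, limma-voom (limma 3.58.1), a replicate block, no series term, each series alone, PIM1 fitted per series over 18 libraries, and each library left out. Replicates of a group differed by 2.88 to 81.6 times the counting variance, and 0 pairs were identical. Residuals of same-numbered libraries correlated at 0.116 to 0.492 between siRagC2 and siCtrl, 0.221 to 0.582 between the siRNAs, and 0.076 to 0.610 between siRagC1 and siCtrl. By the rule that every pair exceeds 0.1, the numbers paired the libraries in the first 2 cases. With the code series removed, the ranges were -0.038 to 0.204, 0.044 to 0.263 and -0.075 to 0.299, and the rule was met in none.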

Additional observations from a re-analysis of the deposited data

Results flagged for a closer look

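PIM3 in siCtrl replicate 6, at 35.9 CPM, lay far from the other 5 control libraries, of which the nearest was at 51.4 CPM, with a gap of 0.677 of the whole range of the group. The GC-rich genes of this library were also low, at a median of -0.51 on the log2 scale, and the part of this in the PIM3 value was not tested. RRAGC in siCtrl replicate 1, at 67.9 CPM, lay above the other controls, of which the nearest was at 62.2 CPM, with a gap of 0.790 of the range. Of 12 combinations of gene and group examined for such gaps, chance alone would give about 1 in 20.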

How the results depend on the processing

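The count of called genes moved most. For siRagC1 and siRagC2, in this order, 312 and 495 genes were called, against 799 and 843 with no filter, 778 and 1005 with DESeq2, 864 and 986 with the replicate block, 7 and 19 with no code series term, 554 and 1149 in D1103 alone, and 1 and 1 in D1221 alone. With single libraries left out the counts ran from 78 to 893 and from 197 to 644. siRagC1 counts moved by over 1.5 times without siCtrl replicates 1, 2 or 5 (93, 103 and 176) and without siRagC1 replicates 1 to 6 in turn (118, 78, 148, 184, 192 and 893). siRagC2 counts did so without siCtrl replicates 1 or 2 (197 and 290) and siRagC2 replicates 1 or 4 (201 and 207). The causes were not tested.

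For PIM1 in D1103, both siRNAs kept their call in all 5 other settings fitted on D1103 alone. With each of 6 libraries left out, siRagC2 kept it in 6 (0.43 to 0.52) and siRagC1 in 2 (0.25 to 0.39). The effect per code series over 18 libraries was 0.33 with siRagC1 and 0.48 with siRagC2. That fit holds the D1221 libraries by which PIM1 was chosen, so it counts as no test, and siRagC1 would have missed the threshold in it. A group left with 1 library is then assumed to vary like the others. PIM2 passed in no setting. PIM3 passed in 1, siRagC2 with no filter (0.24, adjusted p = 0.00271), and ran from 0.17 to 0.29 with siRagC2 and from 0.05 to 0.17 with siRagC1 with single libraries left out. The replicate block changed no call of a member (PIM3 with siRagC2 0.25, adjusted p = 0.0664; PIM1 in D1103 0.32 and 0.48, adjusted p = 0.00280 and 4.91e-06).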
